A study of Mus musculus with 15 samples.

Results

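The MYC and MAX network was followed through IL-3 stimulation of Ba/F3-beta cells, a mouse pro-B cell line that depends on IL-3, with and without siRNA against Stat5A and Stat5B. Its members were all probe sets annotated to 9 genes, namely Myc, Mycn, Max, Mxd1, Mxd3, Mxd4, Mxi1, Mnt and Mlx. They comprised 17 of the 36701 probe sets other than array controls, with 10 on the U74A array, 3 on U74B and 4 on U74C. Of the 17, 12 probe sets from 8 genes gave a signal above the level taken as measurable on at least 1 array.

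The groups were Stat5 siRNA cells given IL-3 for 30 min, Stat5 siRNA cells given IL-3 for 2 h, control siRNA (scramble I) cells given IL-3 for 30 min or for 2 h, and control siRNA cells left unstimulated. Each group was hybridised to 1 array of each of 3 designs, 15 arrays in all. Stat5 siRNA cells without IL-3 were not analysed here, so the siRNA comparison exists only under IL-3. All groups are the same transfected cell line, and with 1 array per group and design no difference below has a replicate check and none was tested.

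MYC and its relative MYCN are transcription factors that pair with MAX and, as a dimer, bind the E-box CACGTG to drive genes for growth, ribosome production and metabolism. The MXD proteins (encoded by Mxd1, Mxd3, Mxd4 and Mxi1) and MNT pair with MAX on the same sequence and recruit SIN3 and histone deacetylases, so they act as antagonists of MYC. MLX is a MAX-like protein that forms separate dimers, either with some MXD proteins or MNT, or with the glucose-sensing factors MLXIP and MLXIPL. In blood cells, Myc is known as an early gene of cytokine signalling, and MXD genes are known for their expression in resting and differentiating cells.

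Upstream sequences of the members, 250 bases before each annotated start from RefSeq on GRCm38.p6, were matched for 8 of the 9 genes, with 10 sequences in all. Myc was not among them. Those of Mycn, Mlx and Mxd4 are shown, because Mycn and Mlx had higher and Mxd4 lower signals after 2 h of IL-3, and because Mlx and Mxd4 carry the network's own binding letters. Capitals mark CACGTG in Mlx and Mxd4, and TTTGGCGC, letters of a kind that E2F factors bind, in Mycn. All are written 5′ to 3′ on the strand of the gene.
Mycn, chr12:12941837-12942086, minus strand: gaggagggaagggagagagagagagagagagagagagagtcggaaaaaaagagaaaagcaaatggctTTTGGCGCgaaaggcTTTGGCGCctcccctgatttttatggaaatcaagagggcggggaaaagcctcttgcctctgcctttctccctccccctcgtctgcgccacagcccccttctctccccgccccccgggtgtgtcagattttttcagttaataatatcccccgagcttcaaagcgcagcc
Mlx, chr11:101087040-101087289, plus strand: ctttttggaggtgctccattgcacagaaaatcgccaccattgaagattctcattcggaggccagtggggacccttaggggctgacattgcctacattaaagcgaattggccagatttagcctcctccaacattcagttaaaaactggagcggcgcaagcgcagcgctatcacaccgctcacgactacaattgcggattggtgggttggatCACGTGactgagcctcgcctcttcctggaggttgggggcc
Mxd4, chr5:34187711-34187960, minus strand: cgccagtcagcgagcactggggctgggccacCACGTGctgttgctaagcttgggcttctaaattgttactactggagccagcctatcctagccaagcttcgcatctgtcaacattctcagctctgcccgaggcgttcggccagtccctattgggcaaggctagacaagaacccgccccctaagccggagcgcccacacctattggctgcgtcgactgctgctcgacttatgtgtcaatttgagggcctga
CACGTG lay 40 bases before the start in Mlx and 219 bases before it in Mxd4. It was also present in Mnt, so 3 of the 8 genes held it. Searched on both strands, it occurred in 6.02% of the 32851 upstream windows of the same length. The STAT letters TTCNNNGAA occurred in 7.02% of all windows and in 0 of the 10 windows of the network. TTTGGCGC, searched for after the Mycn sequence had been read, began 183 and 168 bases before the Mycn start and occurred in 0.417% of all windows. No search motif overlapped another in the 3 sequences. A match is a description of letters, and its absence says only that these letters are not in this window.

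The values are MAS5 signals, linear brightness units per probe set. A signal of 119.8, reached by 14553 probe sets on the highest of their arrays, was taken as the floor, and lower signals were raised to it before a log2 ratio was formed. Where 1 of the 2 signals was under the floor, the true change may be larger than the ratio given, which is then written as at least N-fold or named as a bound. Rose and fell are used for changes of 2-fold or more, a choice of size and not a test. Where a gene had several measured probe sets its ratio is their median. Pairs of probe sets of 1 gene gave an SD for a single log2 ratio of 0.19 to 0.23 on U74A, 0.18 to 0.30 on U74B and 0.31 to 0.41 on U74C over the comparisons made here. Levels of different genes are not compared, since probe sets differ in brightness.

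Both siRNA targets had lower signals under the siRNA. Stat5b on U74B had 166 in Stat5 siRNA cells and 499 in control siRNA cells at 30 min, and 126 and 177 at 2 h, where the signal in control siRNA cells was itself low. The brighter Stat5a probe set, of a kind that can cross-hybridise, kept 50.6% of the control signal at 30 min and 53.6% at 2 h. Interferon response genes moved with the siRNA. Of 13 measured genes of that list, 7 were 2-fold higher at 30 min and 8 at 2 h, against 0.308% and 0.504% of all genes. In control siRNA cells 5 of the 13 at 30 min and 6 at 2 h were under the floor. Those probe sets were measured only through their Stat5 siRNA signal, so their direction was fixed by that filter. The summed signal of the 20 genes on the arrays was 10151 and 10422 in Stat5 siRNA cells, against 4166 and 3656 in control siRNA cells. Ccl5 was at least 13.8-fold and Irf7 at least 3.73-fold higher at 30 min. Their part in the siRNA results below was not tested.

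Leaving out probe sets that can cross-hybridise, of 13 pro-B, B lineage and IL-3 receptor markers, 5 reached the floor, namely Il3ra, Csf2rb, Csf2rb2, Ptprc and Cd79b. The B lineage genes Pax5, Ebf1, Cd79a, Vpreb1, Igll1, Dntt, Rag1 and Rag2 stayed under it on every array. Beside the receptor genes and Ptprc, Cd79b was thus the only gene of the list to reach it. Cd79b was itself under the floor at 2 h with either siRNA, so these markers give the pro-B label little backing. Of the markers of other cells, 1 of 10 myeloid and mast cell genes (Ms4a2), 0 of 6 T and NK cell genes, 1 of 7 fibroblast and epithelial genes (Epcam) and 5 of 6 erythroid and megakaryocyte genes reached the floor. The summed erythroid and megakaryocyte signal was 6537 and 5982 in Stat5 siRNA cells at 30 min and 2 h. It was 4533 and 3863 in control siRNA cells, and 5022 without IL-3. The summed pro-B, B lineage and IL-3 receptor signal was 8114 and 11416 in Stat5 siRNA cells. It was 12263 and 12375 in control siRNA cells, and 10742 without IL-3. With Stat5 siRNA all 5 measured genes of that list were below 0 at 30 min, among them Csf2rb2 (-0.65) and Csf2rb (-0.53). Over all genes 50.1% were above 0. The part of either marker set in the results was not tested, and fewer cells of a type and less RNA per cell cannot be told apart.

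Myc was the member with the largest ratio to unstimulated cells at 30 min of IL-3. Its single probe set had a signal of 452 at 30 min and 481 at 2 h in Stat5 siRNA cells. In control siRNA cells it had 39.4 without IL-3, 527 at 30 min and 338 at 2 h. All 4 IL-3 arrays were thus well above the unstimulated array, which lay under the floor. Myc rose at least 4.40-fold at 30 min and was at least 2.83-fold higher than in unstimulated cells at 2 h. Both are bounds, so no rank among all genes is given. The size rests on the floor: with signals not raised the log2 ratios were 3.74 and 3.10, against 2.14 and 1.50 here, and with the floor doubled 1.14 and 0.50, the second no longer 2-fold.

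Mycn, the MYC relative known best from neural and early lymphoid cells, rose later. Its signal was 621 at 30 min and 1080 at 2 h in Stat5 siRNA cells. In control siRNA cells it was 528 without IL-3, 759 at 30 min and 1234 at 2 h. The signal was thus higher at 2 h than at 30 min with either siRNA, and all 4 IL-3 arrays lay above the unstimulated one. Mycn was 1.44-fold higher at 30 min, short of the 2-fold threshold, and rose 2.34-fold at 2 h, rank 119 of 8294. A second Mycn probe set, of a kind that can cross-hybridise, gave between 0.268 and 4.41 and was under the floor on all arrays.

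**Figure D1:**
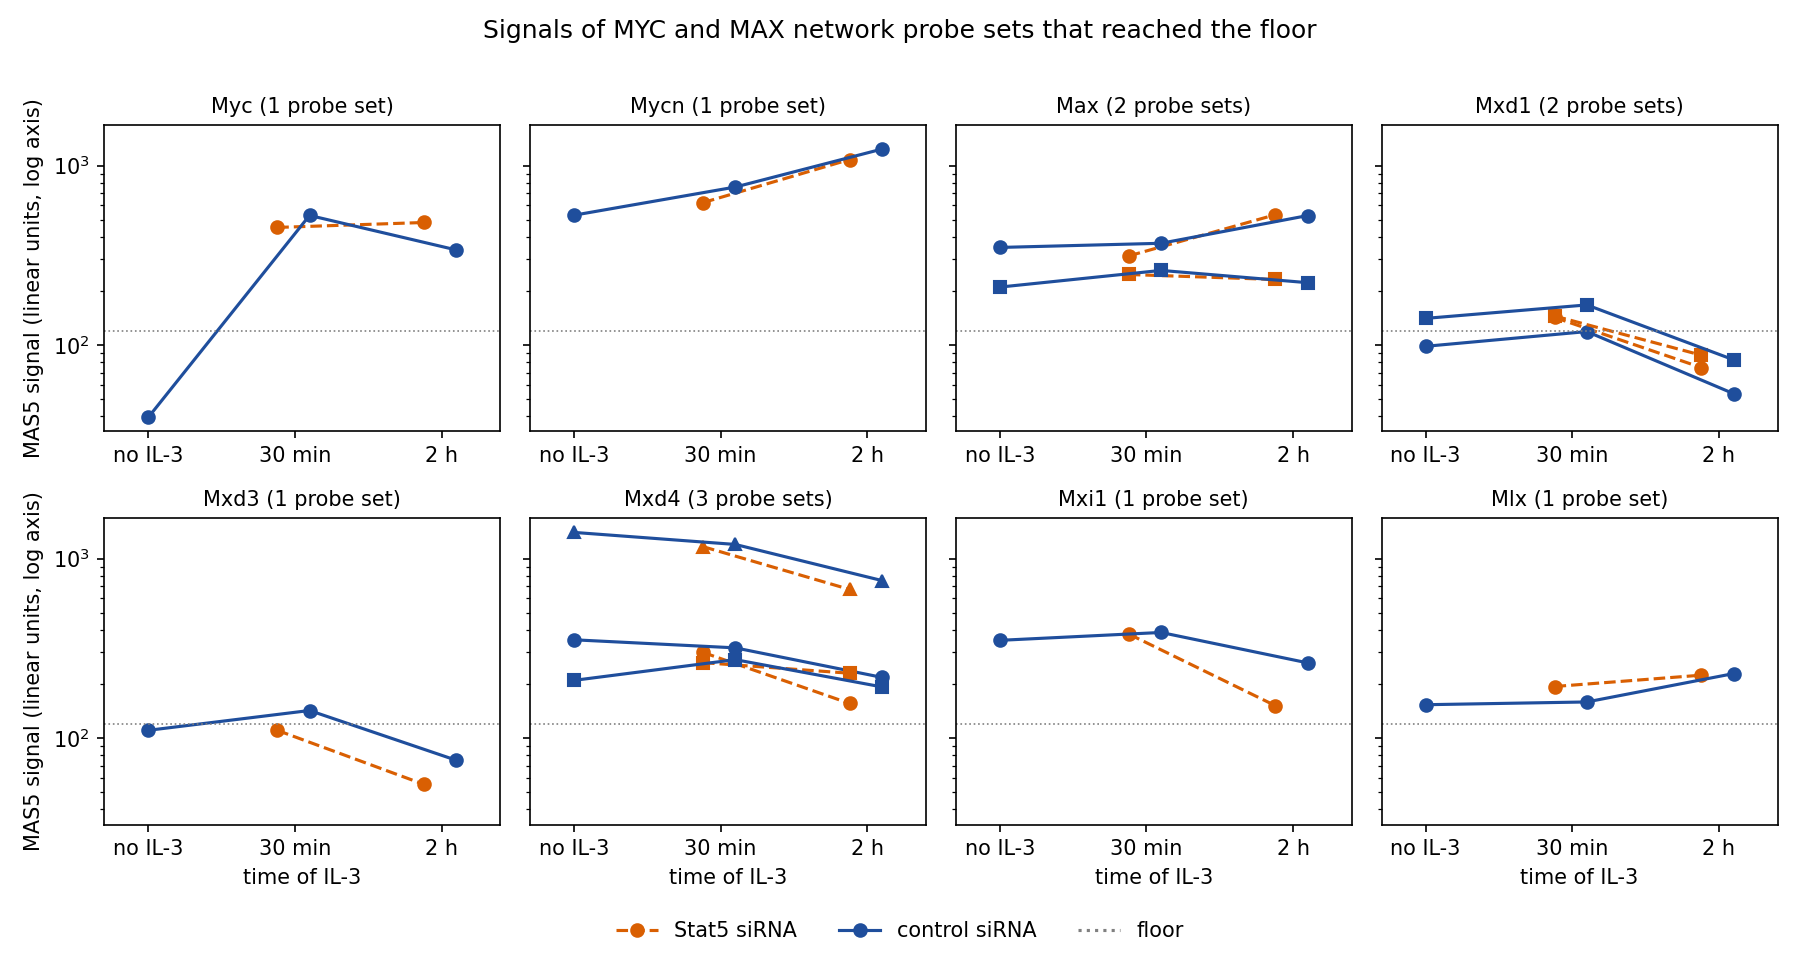
MAS5 signal (log axis) of the 12 network probe sets that reached the floor (dotted line, 119.8) without IL-3, at 30 min and at 2 h. Orange points and dashed lines are Stat5 siRNA, blue points and solid lines control siRNA, each point is 1 array, and marker shapes separate probe sets of a gene; Myc stands at 39.4 without IL-3 and at 338 to 527 on the 4 IL-3 arrays.

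Max encodes the shared partner of MYC, MXD and MNT proteins. Its U74A probe set had 313 at 30 min and 532 at 2 h with Stat5 siRNA, and 349 without IL-3, 369 at 30 min and 526 at 2 h with control siRNA. Both 2 h arrays were above the 3 others. The log2 ratio to unstimulated cells was 0.08 at 30 min and 0.59 at 2 h. The other Max probe set, on U74C and of a kind that can cross-hybridise, did not follow it: it had 247 and 232 with Stat5 siRNA and 210, 260 and 222 over the 3 times with control siRNA, and a log2 ratio of 0.08 at 2 h. With both probe sets taken alike the gene value at 2 h was 0.34.

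Mlx, the MAX-like partner, had 194 at 30 min and 224 at 2 h with Stat5 siRNA. With control siRNA it had 153 without IL-3, 159 at 30 min and 229 at 2 h. Its 2 h signals were the highest with either siRNA, and the log2 ratio to unstimulated cells in control siRNA cells was 0.58 at 2 h and 0.05 at 30 min. Its second probe set stayed under the floor on all arrays, at 22.6 or lower.

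The MXD antagonists had lower signals at 2 h than at 30 min in the probe sets that reached the floor. Mxd4, which encodes MAD4, was read by 3 probe sets. The brightest, on U74C, had 1167 at 30 min and 674 at 2 h with Stat5 siRNA, and 1401 without IL-3, 1201 at 30 min and 755 at 2 h with control siRNA. The U74A probe set had 300 and 156 with Stat5 siRNA, and 353, 318 and 218 over the 3 times with control siRNA. In both, the 2 h arrays were the lowest with either siRNA.

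The Mxd4 probe set on U74B differed in size. It had 263 and 230 with Stat5 siRNA, and 210, 274 and 193 over the 3 times with control siRNA, so its 2 h signals lay on both sides of the unstimulated one. The 3 log2 ratios at 2 h were -0.89 on U74C, -0.70 on U74A and -0.12 on U74B, with -0.70 as their median, rank 466 from the lowest of 8294 genes. On U74A and U74B alone the gene value was -0.41. The remaining Mxd4 probe set, on U74C, stayed at 41.1 or lower and under the floor.

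Mxi1 encodes MXI1, also called MAD2. Its probe set had 380 at 30 min and 151 at 2 h with Stat5 siRNA, and the 2 h signal was the lowest of the 5 arrays. With control siRNA it had 351 without IL-3, 388 at 30 min and 263 at 2 h. The log2 ratio to unstimulated cells in control siRNA cells was 0.15 at 30 min and -0.42 at 2 h.

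Mxd1 encodes MAD1, the founding MXD protein. The brighter of its U74B probe sets had 145 at 30 min and 87.7 at 2 h with Stat5 siRNA, and 141 without IL-3, 167 at 30 min and 82.6 at 2 h with control siRNA. The dimmer one had 142 and 74.8 with Stat5 siRNA, and 98.2, 119 and 53.5 over the 3 times with control siRNA. The 2 h signals of both probe sets were under the floor, so the log2 ratio of -0.23 to unstimulated cells at 2 h is a bound. The U74A probe set of Mxd1 gave 3.88 or lower on every array.

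Mxd3, known from proliferating cells in S phase, reached the floor on 1 array. It had 110 at 30 min and 55.2 at 2 h with Stat5 siRNA, and 110 without IL-3, 142 at 30 min and 75.3 at 2 h with control siRNA. Mnt, the broadly expressed antagonist, stayed under the floor at 111 and 94.8 with Stat5 siRNA and at 87.3, 85.4 and 93.6 over the 3 times with control siRNA, so no ratio is given. Lower signals at 2 h than at 30 min, with either siRNA, were thus shared by every MXD probe set that reached the floor. Those of Mxd1 and Mxd3 were under the floor at 2 h. Mxd3 and the dimmer Mxd1 probe set each reached the floor on 1 array only, at 30 min, so their direction is partly set by that filter. The Mxd4 probe set under the floor on all arrays was higher at 2 h. It had 5.74 and 12.7 with Stat5 siRNA, and 10.2 and 41.1 with control siRNA, at 30 min and 2 h.

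Counted by gene, IL-3 for 30 min raised 1 of 8 measured members, Myc, and lowered 0. Over all genes 0.711% were 2-fold higher at this time and 0.343% lower, 58 and 28 genes, or 81 and 19 with median scaling. At 2 h, 2 of 7 measured members, Myc and Mycn, were 2-fold higher and 0 lower, against 2.45% higher and 1.63% lower of all genes. The median log2 ratio of the measured members was 0.20 at 30 min and 0.58 at 2 h, beside -0.01 and -0.03 over all genes. Mxd3 was measured at 30 min but not at 2 h, so these medians cover different genes, and the one at 2 h is the value of Mlx. By sign, Myc, Mycn, Max and Mlx were above 0 at 2 h and Mxd1, Mxd4 and Mxi1 below it. The largest of the negative ratios, that of Mxd4, lay between the 5th and 95th percentile of all genes, -0.74 and 0.75.

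**Figure D2:**
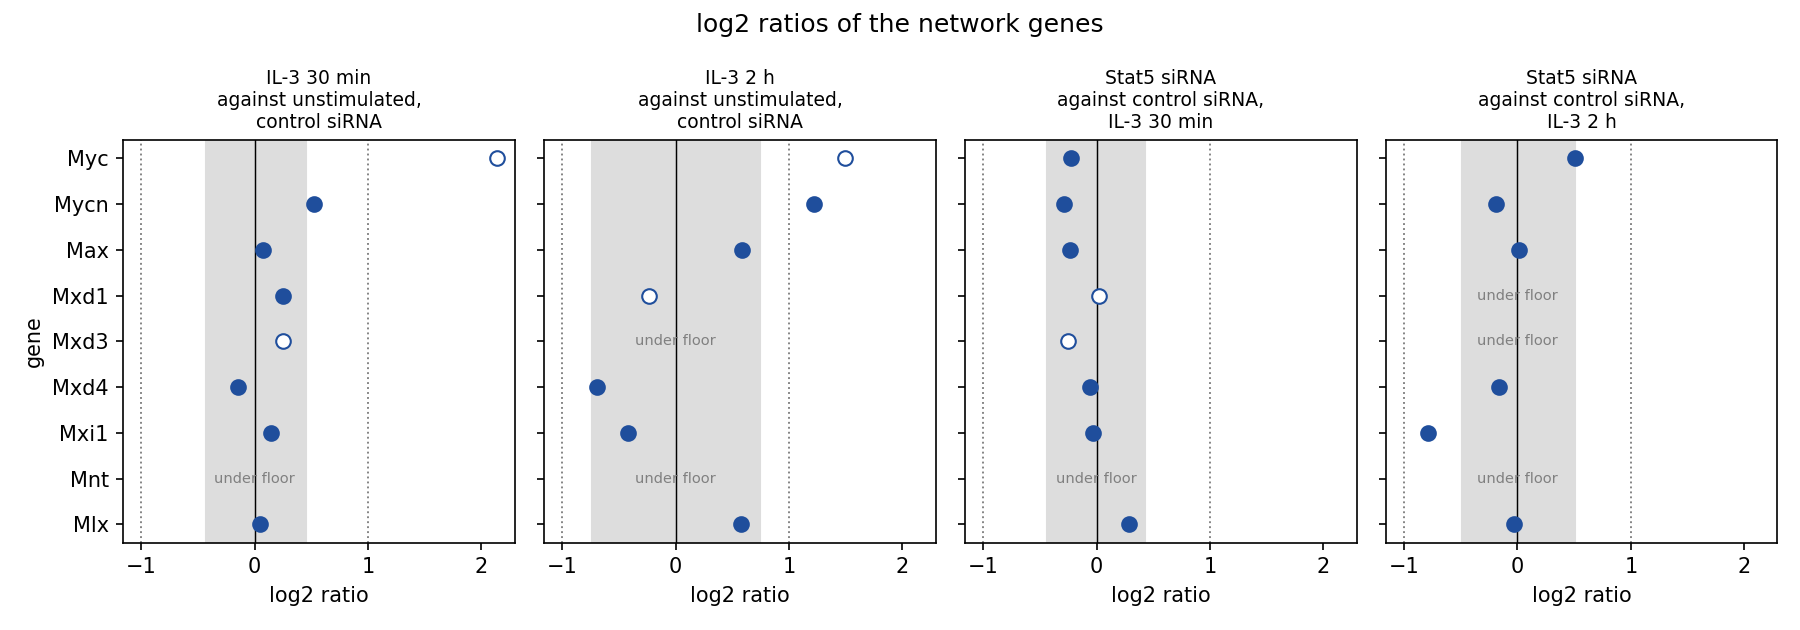
Gene log2 ratios (horizontal axis) of the 9 network genes in 4 comparisons. Filled points have both signals at the floor or above, open points have at least 1 signal under it, the grey band spans the 5th to 95th percentile of all measured genes and dotted lines mark 2-fold; Myc and Mycn pass 2-fold with IL-3 and no gene does so with Stat5 siRNA.

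With Stat5 siRNA, 0 of 8 measured members at 30 min and 0 of 6 at 2 h differed by 2-fold from control siRNA cells. Over all genes 0.308% were 2-fold higher and 0.382% lower at 30 min, 25 and 31 genes, or 23 and 46 with median scaling. At 2 h the shares were 0.504% higher and 0.43% lower, so a count of 0 is near what all genes gave. The median log2 ratio of the members was -0.14 at 30 min and -0.10 at 2 h, beside 0.00 at both times over all genes.

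Myc, listed among known STAT5 targets in some blood cells, had 452 with Stat5 siRNA and 527 with control siRNA at 30 min, a log2 ratio of -0.22. At 2 h it had 481 with Stat5 siRNA and 338 with control siRNA, a log2 ratio of 0.51, rank 412 of 8132. The first is about the size of the U74A spread between probe sets of 1 gene (0.22), and the second is beyond it but under 2-fold. The 2 ratios share no array and have opposite signs. Mycn was -0.29 at 30 min and -0.19 at 2 h.

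Mxi1 had the largest siRNA difference of the network at 2 h. It had 151 with Stat5 siRNA and 263 with control siRNA, a log2 ratio of -0.79, rank 104 from the lowest of 8132 genes and below the 5th percentile of all genes (-0.49). At 30 min it had 380 with Stat5 siRNA and 388 with control siRNA, a ratio of -0.03. With the floor doubled, which puts the Stat5 siRNA signal under it, the ratio at 2 h was -0.13, a bound. The remaining members lay between -0.25 and 0.29 at 30 min and between -0.16 and 0.02 at 2 h, apart from Myc and Mycn. The -0.25 is that of Mxd3 and is a bound. Mxd3 was measured there only through its control siRNA signal, so its direction was fixed by that filter. The 3 Mxd4 probe sets differed at 2 h, with -0.48 on U74A, -0.16 on U74C and 0.25 on U74B.

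The step from 30 min to 2 h of IL-3 was measured once with each siRNA, on arrays that the other step did not use. Mycn had a log2 ratio of 0.80 with Stat5 siRNA and 0.70 with control siRNA. Max had 0.76 and 0.51, and Mlx 0.21 and 0.52, in the same order. Mycn, Mlx and the U74A probe set of Max were thus higher at 2 h with either siRNA, short of 2-fold. The U74C probe set of Max was lower in both steps, at -0.09 with Stat5 siRNA and -0.23 with control siRNA, and with both probe sets taken alike Max had 0.34 and 0.14.

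Mxd1, Mxd4 and Mxi1 had lower signals at 2 h in both steps. Mxd4 had -0.79 with Stat5 siRNA and -0.55 with control siRNA, and all 3 probe sets were below 0 in both. Mxi1 fell 2.51-fold with Stat5 siRNA, with a log2 ratio of -1.33 and rank 30 from the lowest of 8247 genes, and had -0.56 with control siRNA. With the floor doubled, which puts the 2 h signal under it, the ratio with Stat5 siRNA was -0.67, a bound. Mxd1 was at least 1.20-fold lower with Stat5 siRNA and at least 1.39-fold lower with control siRNA. Myc differed between the steps, with 0.09 under Stat5 siRNA and -0.64 under control siRNA, a difference that was not tested. Past 2-fold were 1 of 7 measured members with Stat5 siRNA, Mxi1, and 0 of 8 with control siRNA, while 1.64% of all genes were higher and 1.19% lower with Stat5 siRNA, and 1.89% higher and 1.65% lower with control siRNA.

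**Figure D3:**
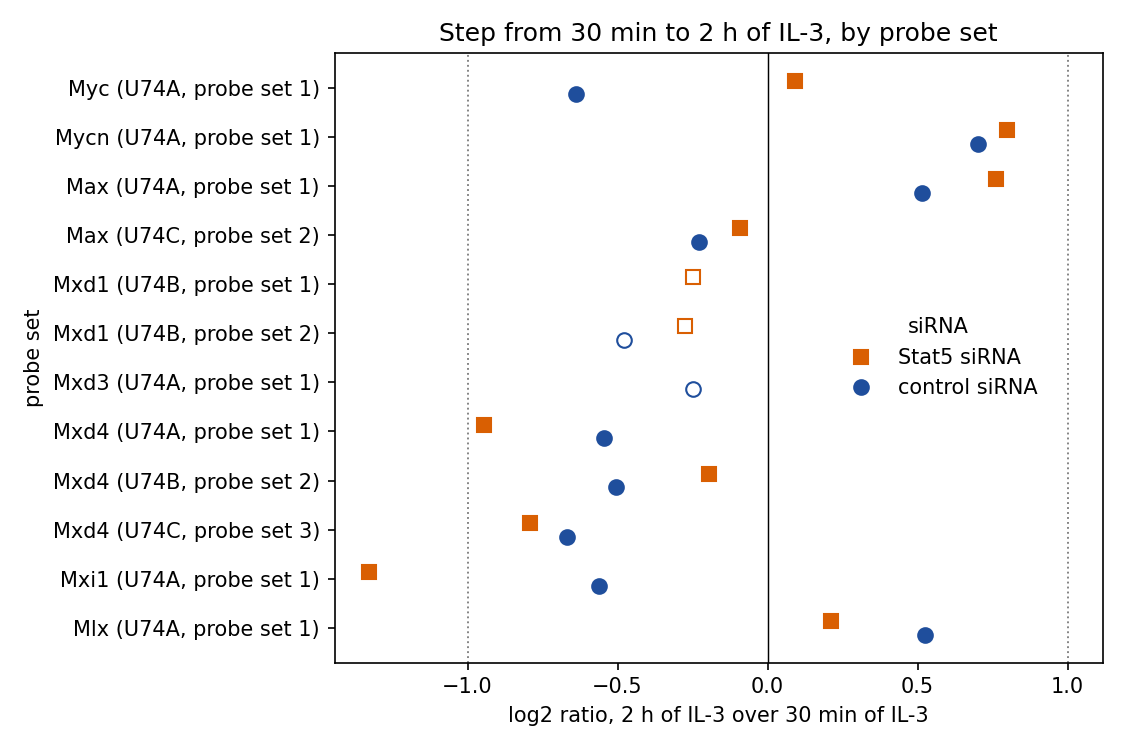
log2 ratio of 2 h over 30 min of IL-3 for each network probe set that reached the floor, with Stat5 siRNA (orange squares) above control siRNA (blue circles) in each row. Open symbols have 1 signal under the floor and dotted lines mark 2-fold; Mycn, Mlx and the U74A probe set of Max lie above 0 and every measured point of the MXD and Mxi1 probe sets below 0, while Myc stands at 0.09 with Stat5 siRNA and at -0.64 with control siRNA.

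The genes whose 4 log2 ratios to unstimulated cells (30 min and 2 h, Stat5 and control siRNA) were closest to those of Myc were sought among 7898 genes by Euclidean distance. They were Fosl2 (0.92), Lce1i (1.12), Dusp5 (1.14), Junb (1.24) and Rps13 (1.28). Fosl2 and Junb encode AP-1 subunits and Dusp5 a phosphatase of ERK. At 30 min and 2 h Myc had ratios of at least 1.91 and 2.01 in Stat5 siRNA cells and at least 2.14 and 1.50 in control siRNA cells. All 4 are bounds set by the floor, so the distances to Myc depend on the floor too. Fosl2 had 1.64 and 1.20 in Stat5 siRNA cells and 2.10 and 1.17 in control siRNA cells. Mycn had closer neighbours, namely Clcn2 (0.08), Slc2a3 (0.17), Fgl2 (0.20), Txnrd1 (0.22) and Tars (0.28). Clcn2 is a chloride channel gene, Slc2a3 a glucose transporter gene, Txnrd1 a redox enzyme gene and Tars the threonyl-tRNA synthetase gene. The 4 ratios share the unstimulated array, so this likeness is a description.

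Counts past 2-fold among genes that act on or with the network are read against all genes, of which 0.711% were higher and 0.343% lower at 30 min of IL-3, and 2.45% higher and 1.63% lower at 2 h. A count of 0 in lists of this size is near those shares, and a count of 1 rests on a single gene. Of 13 listed MYC cofactors, 11 were measured, and 0 were 2-fold different at 30 min and 1 at 2 h, Ep400, a subunit of the TIP60 acetyltransferase complex, at -1.03. Of 9 corepressor genes that MXD and MNT proteins use, 8 were measured and 0 passed 2-fold at either time, with Sap30 at -0.72 the largest at 2 h. Of 14 genes for MYC phosphorylation and turnover, 11 were measured at each time and 0 passed. In that list Fbxw7, the ubiquitin ligase subunit that targets MYC, was at least 1.84-fold higher at 2 h, and Usp36, a nucleolar deubiquitinase of MYC, at least 1.78-fold. Usp36 was under the floor without IL-3 and at 30 min in control siRNA cells. It was measured only through its 2 h signals, so its direction was fixed by that filter. The same held for 1 of the 2 Fbxw7 probe sets. Of 12 genes that control Myc transcription, 8 were measured and 0 passed.

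Among 11 genes known to act on the stability of Myc or other short-lived mRNAs, 8 were measured. Zfp36, which binds AU-rich elements and speeds decay, rose at least 3.39-fold at 30 min. In control siRNA cells Zfp36 was under the floor without IL-3 and at 2 h. It was measured only through its 30 min signal, so its direction was fixed by that filter. Its relatives Zfp36l1 and Zfp36l2 had log2 ratios of 0.87 and 0.63. At 2 h 0 of 8 passed 2-fold, and Syncrip, an RNA-binding protein gene, had the largest ratio (0.80).

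In the extended network, Mycl and Mlxipl stayed unmeasured, and 4 of 6 genes were measured with IL-3. Mga, a MAX partner that represses germline genes, had -0.65 at 30 min and -0.70 at 2 h of IL-3. With Stat5 siRNA it had log2 ratios of 0.75 at 30 min and 0.82 at 2 h. Its control siRNA arrays under IL-3 enter both ratios. Mlxip had 0.24 at 2 h of IL-3.

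Some known MYC targets passed 2-fold at 2 h of IL-3, and 0 did so at 30 min. Of 38 listed genes, 32 were measured at 30 min, where 0 passed 2-fold and the median log2 ratio was -0.00. At 2 h 7 of 33 were 2-fold higher and 0 lower, beside 2.45% higher and 1.63% lower of all genes. The median was 0.39, beside -0.03 over all genes. Gnl3, the nucleolar GTPase nucleostemin, rose 5.29-fold and Rrs1, a ribosome assembly factor, at least 4.37-fold. Rrs1 was under the floor in control siRNA cells without IL-3 and at 30 min. It was thus measured there only through its 2 h signal, so its direction was fixed by that filter. Nolc1, a nucleolar phosphoprotein, rose 2.64-fold and Nop58, of the box C/D snoRNP core and read only from a probe set that can cross-hybridise, 2.52-fold. The remaining 3 were Nop56, Ddx18 and Srm, of which Srm was also read only from a probe set that can cross-hybridise. By sign, 24 of 33 were above 0 at 2 h and 9 below, Hspd1 (-0.71) being the lowest. Of the 33, 6 had a probe set with a signal under the floor. Among them Rrs1, Polr1b (0.47) and Cdc25a (0.07) were measured only through their 2 h signal, so their sign was fixed by that filter. From 30 min to 2 h, 6 of 34 were 2-fold higher with Stat5 siRNA (median 0.42) and 7 of 33 with control siRNA (median 0.34). Over all genes the shares were 1.64% and 1.89%. Above 0 in these steps were 26 of 34 and 27 of 33, beside 47.2% and 47.6% of all genes. A signal under the floor entered 4 of the 34 and 5 of the 33. The sign of Ccnd2 and Polr1b with Stat5 siRNA, and of Rrs1 and Cdc25a with control siRNA, was fixed by the filter. Between the siRNAs 0 passed 2-fold at either time (medians 0.02 and 0.03).

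Growth arrest genes, several of them known to be repressed by MYC, had lower signals at 2 h. Of 15 listed, 8 were measured with IL-3, and 7 of the 8 were below 0 at 2 h, Cdkn1a (0.88) being the exception. At 30 min Btg2, an antiproliferative factor, rose 2.96-fold and Cdkn1a, the p21 inhibitor of cyclin-dependent kinases, 2.57-fold. At 2 h 4 fell, with Ccng2, an atypical cyclin, at least 8.80-fold lower, Trp53inp1 4.39-fold, Gadd45a 2.59-fold and Klf6 2.21-fold, and the list's median was -1.01. Over all genes 1.63% were 2-fold lower at 2 h and 46.2% had a ratio above 0. With Stat5 siRNA 0 of 8 passed 2-fold at 30 min and 0 of 6 at 2 h. Cdkn1a had the largest differences, -0.63 and -0.80. At 2 h it was the only gene of the 6 below 0, with Klf6 at 0.63 and a list median of 0.37. At 30 min 6 of 8 were below 0, with a median of -0.10. Over all genes 50.1% were above 0 at 30 min and 50.5% at 2 h.

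**Figure D4:**
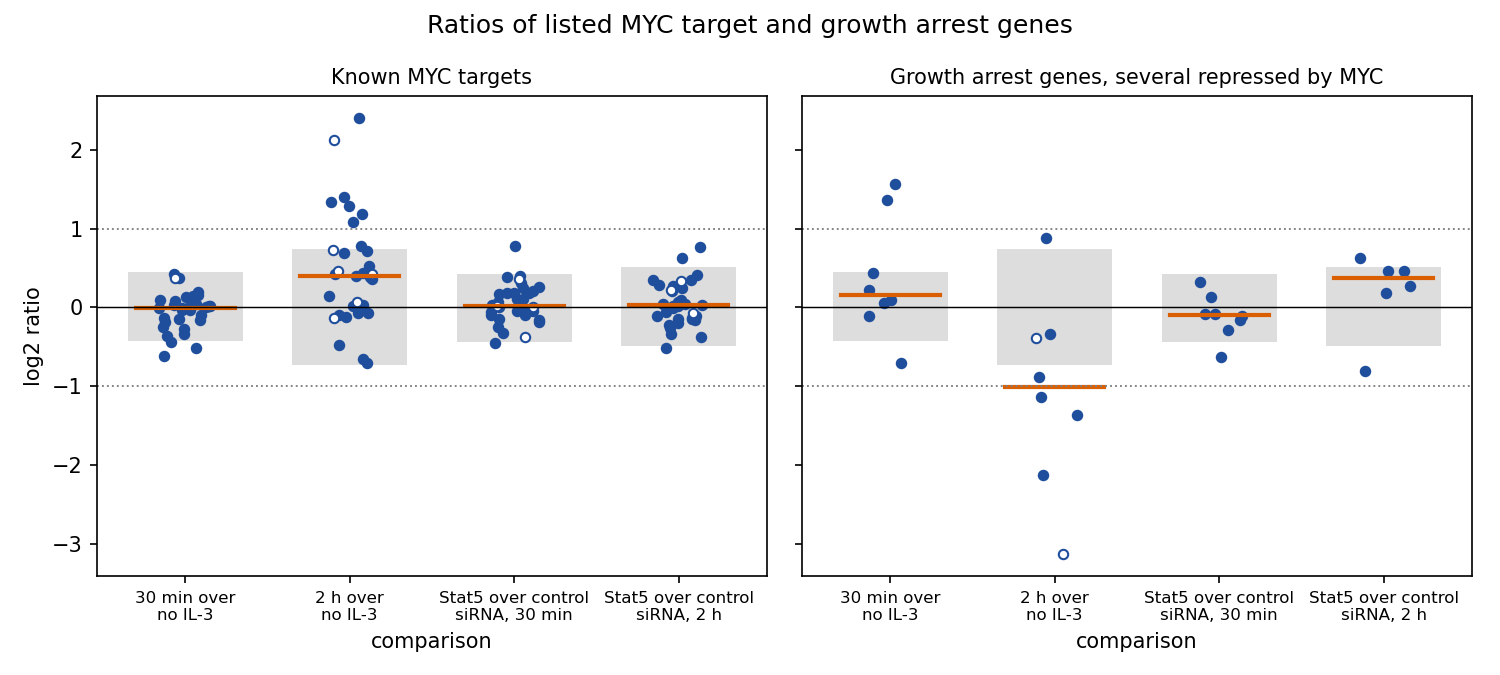
log2 ratio of each measured gene of the list of known MYC targets (left) and of growth arrest genes (right) in 4 comparisons. Each point is 1 gene, open where a signal was under the floor; orange bars are list medians, grey boxes the 5th to 95th percentile of all genes and dotted lines 2-fold, with 7 of 33 MYC targets above 2-fold and 4 of 8 growth arrest genes below it at 2 h of IL-3.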

How the data were processed

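RNA was measured on Affymetrix U74A, U74B and U74C arrays. Per the submitters' processing notes and the series' design text, the authors computed the deposited signal intensity of each probe set with MAS5. The scale is linear, and the trimmed mean (2% left out at each end) was between 150.04 and 150.1 on all 15 arrays. Software versions, detection calls and scan batches were not given in the sources used here.

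Signals were rescaled to a trimmed mean of 150 on every array, and the floor of 119.8 was the level that 14553 of 36701 probe sets reached, the number that the design text says passed its filters. Log2 ratios were formed within a design after raising signals to the floor. A comparison used a probe set if 1 of its 2 arrays reached the floor. Groups came from sample titles. Gene names came from the platform annotation (1 symbol for 29131 probe sets, several for 724, none for 6846) with 0 updated through GRCm38.p6. Probe sets that can cross-hybridise (suffixes _f, _i, _r and _x before _at) were used only for genes with no other. Python 3.11.15, numpy 2.4.6 and pandas 2.3.3 were used, and the steps were tested on simulated data. The number of arrays limits the precision. Tried instead were 3 other scalings, 4 other floor settings, the brightest probe set, all probe sets alike, and no U74C.

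The members and the 14 gene lists were chosen with earlier results of these data known. Named are all members, the genes of each list with the largest ratios, Stat5a and Stat5b, and the 5 genes most like Myc and like each other member past 2-fold with IL-3. Genes named for a low count or as unmeasured were chosen after their values were seen.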

Additional observations from a re-analysis of the deposited data

Results flagged for a closer look

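Myc differed in sign between the siRNA comparisons. Its log2 ratio of Stat5 siRNA over control siRNA was 0.51 at 2 h of IL-3 and -0.22 at 30 min, both larger than the spread between probe sets of 1 gene on U74A (0.22 at either time), although the one at 30 min exceeded it only marginally. Each ratio rests on 1 array per siRNA and the difference between them was not tested.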

How the results depend on the processing

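With 10 other settings in 6 comparisons, 426 member ratios were recomputed; 400 moved by less than the spread between probe sets of 1 gene, 26 moved by more, and 5 changed sign, none of them of a member past 2-fold. The 5 were Mxd4 at 30 min (0.12 on U74A and U74B only), Mxd1 with Stat5 siRNA at 30 min (-0.07 with a floor per design, -0.21 with the brightest probe set), and Mlx (0.08 with median scaling) and Max (-0.01 with quantile scaling) with Stat5 siRNA at 2 h. The size of the Myc response is set by the floor, which replaced its unstimulated signal of 39.4. At 30 min it was 3.14 with the floor halved, 1.14 with it doubled and 3.74 with signals not raised, and at 2 h 2.50, 0.50 and 3.10. The count of members past 2-fold at 2 h of IL-3 was 1 with the floor doubled, which left Mycn. From 30 min to 2 h it was 1 (Mxd1) in control siRNA cells with the floor halved and 1 with signals not raised, and 0 in Stat5 siRNA cells with the floor doubled. The Mxi1 ratio with Stat5 siRNA at 2 h was -0.13 with the floor doubled, a bound since the Stat5 siRNA signal then lay under the floor. The Max ratio at 2 h of IL-3 was 0.34 with all probe sets alike.

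Counts over all genes also moved with the floor. With the floor halved, doubled and signals not raised they were 209, 45 and 242 (86 as reported) at 30 min of IL-3, 580, 181 and 679 (338) at 2 h, 161, 28 and 198 (56) with Stat5 siRNA at 30 min, 225, 30 and 267 (76) at 2 h, 492, 161 and 573 (292) from 30 min to 2 h with control siRNA, and 393, 130 and 481 (233) with Stat5 siRNA. Without U74C the counts at 30 min of IL-3, with Stat5 siRNA at 30 min and with it at 2 h were 35, 24 and 42. No paired analysis was possible because each condition had 1 array per design. Mnt was under the floor on every array, and Mxd1 and Mxd3 were under it at 2 h, so their ratios there are bounds or are not given.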
